A study of Mus musculus with 25 samples.

Results

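The 10 genes described here belong to fibroblast growth factor (FGF) and ERK signalling, or are transcribed in response to it, and were read beside the transcription factor gene *Etv4*. They were the ligand genes *Fgf4* and *Fgf15*, the receptor gene *Fgfr1*, the ETS factor genes *Etv4* and *Etv5*, the feedback inhibitor genes *Spry2*, *Spry4*, *Dusp4* and *Dusp6*, and the immediate early gene *Egr1*. They were taken by name, as the rows of the count table whose Ensembl gene ID carries these symbols, and were 10 of 48440 genes in the table. The names were chosen with earlier results of these data known. Counts of these genes beside the share over all genes are therefore descriptions and not independent tests. All 10 passed the filter on low counts in every comparison below.

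RNA was measured in 25 libraries of mouse E14 embryonic stem (ES) cells, a line kept without feeder cells in serum and leukemia inhibitory factor. Unedited E14 cells were exposed for 48 h to 0, 2.5, 5, 7.5 or 10 µM CHIR99021, an inhibitor of the kinase GSK3β, with 2 libraries per dose. The other 15 libraries came from 15 clones grown without inhibitor, 1 library per clone, heterozygous for 1 of 11 missense mutations in *Ctnnb1*, the gene for β-catenin. The mutated codons 37, 41 and 45 lie in the degron, the stretch through which phosphorylation marks β-catenin for destruction. The clones were compared in 3 sets of genotypes, which follow the high, medium and low categories of a Tcf/Lef reporter score measured in other cells. The 9 strong clones carried T41I (B9, A6), T41A (E6, C1), S37Y (A5), S37F (G1, H2), S37C (G12) or S37A (A10). The 3 medium clones carried S45P (G5) or S45F (D9, C1), and the 3 weak clones T41N (D3), S45C (D3) or T41S (H8). The study drew its categories with a clustering of these same libraries in view, so the sets are not independent of expression. Each clone is a separate line, and a difference between clones and unedited cells cannot be told apart from a difference made by deriving and culturing the clones. The labels do not say that the 2 libraries of a dose came from separate cultures, so the p-values measure the spread between these libraries.

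FGF ligands bind receptor tyrosine kinases and pass the signal through RAS, RAF and MEK to the kinase ERK. ERK switches on immediate early genes and the ETS factors of the PEA3 family, *Etv4* and *Etv5*, and also genes of its own inhibitors, the Sprouty proteins and the dual-specificity phosphatases. In mouse ES cells FGF4 is made by the cells themselves, and ERK activity is known for driving exit from the naive state, whereas inhibition of GSK3β stabilises β-catenin.

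Libraries held 306157 to 2083398 deduplicated UMI counts, and a count of 0 allows up to 3 counts, or 1.44 to 9.80 CPM (counts scaled to the library total, as counts per 1000000). Interval and limit cover counting error only. The share of counts from mitochondrial genes was 0.485% to 1.46% in the E14 libraries and 1.53% to 2.52% in the clones, without overlap, and its part in the comparisons of clones with unedited cells was not tested. *Axin2*, a direct β-catenin target used as a check of the dose labels, rose from 13.8 and 15.8 CPM at 0 µM to 98.0 and 134 CPM at 10 µM. In the clones *Axin2* was at 22.6 to 42.4 CPM in the weak, 22.9 to 33.3 in the medium and 38.9 to 87.4 in the strong set. It thus did not separate the weak from the medium clones, and the weak and strong sets overlapped. *Ctnnb1* RNA stood at 362 to 542 CPM over all libraries. All 8 ES cell markers had a mean of at least 10 CPM in every set, although the defining marker *Pou5f1* was at 9.05 to 28.8 CPM. The 4 markers of primed cells summed to 515 to 676 CPM in the weak clones and to 120 to 237 CPM in the strong clones, and S37Y clone A5 had 85.4 CPM of the primitive endoderm marker *Gata6*, against at most 13.1 CPM in the E14 libraries. In bulk RNA, fewer cells of a type and less RNA per cell cannot be told apart.

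On GRCm38 the ETS factor genes lie at chr11:101769742-101785371 (*Etv4*) and chr16:22381309-22439719 (*Etv5*), both on the minus strand. *Spry2*, also on the minus strand, is at chr14:105891947-105896819. On the plus strand lie the phosphatase genes at chr8:34807297-34819894 (*Dusp4*) and chr10:99263231-99267489 (*Dusp6*) and *Fgfr1* at chr8:25513654-25575718. The ligand genes *Fgf4* (chr7:144847367-144865243) and *Fgf15* (chr7:144896531-144900953) neighbour each other on chromosome 7.

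RefSeq promoter windows on build GRCm38.p6 were read for 4 of the 10 genes (5 windows). Those of *Spry4* and *Egr1* were left out. The 250 bases before the start are printed for *Spry2* and *Fgf4*, which moved in opposite directions with the CHIR99021 dose, and for *Dusp6*, which differed between clones and unedited cells and was not called with dose. Capitals mark the ETS core GGAA, or TTCC on the other strand, the letters that factors such as ETV4 and ETV5 bind. The windows are chr14:105896820-105897069 on the minus strand for *Spry2*, chr10:99262981-99263230 on the plus strand for *Dusp6* and chr7:144861136-144861385 on the plus strand for *Fgf4*.
Spry2: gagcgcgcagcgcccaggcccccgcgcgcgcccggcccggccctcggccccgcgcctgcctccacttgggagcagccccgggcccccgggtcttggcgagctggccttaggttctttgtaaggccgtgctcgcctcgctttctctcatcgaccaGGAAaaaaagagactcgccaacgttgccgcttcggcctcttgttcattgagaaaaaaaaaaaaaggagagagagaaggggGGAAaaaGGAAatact
Dusp6: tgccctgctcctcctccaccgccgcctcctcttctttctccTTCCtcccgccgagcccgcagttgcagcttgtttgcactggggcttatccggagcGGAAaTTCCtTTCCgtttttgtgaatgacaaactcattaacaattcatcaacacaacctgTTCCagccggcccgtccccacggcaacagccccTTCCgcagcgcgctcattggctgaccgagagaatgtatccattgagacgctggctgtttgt
Fgf4: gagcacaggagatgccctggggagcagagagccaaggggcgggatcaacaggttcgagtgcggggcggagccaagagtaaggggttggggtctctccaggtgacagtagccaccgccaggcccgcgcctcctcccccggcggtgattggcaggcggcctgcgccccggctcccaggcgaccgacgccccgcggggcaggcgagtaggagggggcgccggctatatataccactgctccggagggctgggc
The *Dusp6* window held 6 ETS cores, the *Spry2* window 3 and the *Fgf4* window 0, while 93.4% of 32851 windows of this length held at least 1 on either strand. The *Etv5* windows, which are not printed, held 0 and 4. The TCF/LEF core CTTTGA, or TCAAAG, was in none of the 5 windows read and in 13.8% of all windows. Neither motif is contained in the other, and a match describes the letters and does not show a site.

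Along the CHIR99021 dose the ligand genes fell while *Etv4*, both Sprouty genes and *Dusp4* rose. Of the 10 genes, 4 were called higher and 2 lower with dose in edgeR's quasi-likelihood test on the 10 E14 libraries (Benjamini-Hochberg adjusted p under 0.05 over all 10033 genes tested), where 12.5% of all genes tested were called, 5.89% higher and 6.63% lower. The median log2 change per 10 µM over the 10 genes was 0.50, beside 0.0084 over all genes tested. The changes are slopes over the 5 doses, given per 10 µM with standard error (SE). Cell type markers also moved with dose. Of 8 ES cell markers 5 were called lower and 1 higher, and 2 of 2 primed markers tested were lower. Of 3 mesendoderm markers tested 2 were higher, and *T* went from 9.78 and 10.6 CPM at 0 µM to 102 and 124 CPM at 10 µM. The part of these shifts in the changes below was not tested.

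*Fgf4*, the ligand that ES cells make for themselves, stood at 327 and 333 CPM at 0 µM, 187 and 243 at 2.5 µM, 155 and 169 at 5 µM, 175 and 134 at 7.5 µM, and 124 and 138 CPM at 10 µM. Both untreated libraries were above all 8 treated ones. The log2 slope was -1.31 ± 0.15 (SE, adjusted p = 2.516e-07). *Fgf15*, which encodes a hormone-like FGF, had 30.4 and 12.8 CPM at 0 µM, 14.4 and 18.3 at 2.5 µM, 6.58 and 5.28 at 5 µM, 7.98 and 9.22 at 7.5 µM, and 3.27 and 3.77 CPM at 10 µM. These are few counts, from 56 down to 1 in a library, and the libraries at 0 and 2.5 µM lay above all those at higher doses. Its slope was -2.44 ± 0.44 (adjusted p = 0.0002289), and the call was lost without 0 µM replicate 1 (-1.76, adjusted p = 0.0576) and over the treated libraries alone (-2.33, adjusted p = 0.110). The receptor gene *Fgfr1* ranged from 81.9 to 127 CPM over the 10 libraries and was not called (slope 0.32 ± 0.15, adjusted p = 0.1792).

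*Etv4* was at 29.4 and 17.0 CPM at 0 µM, 28.7 and 19.8 at 2.5 µM, 44.4 and 32.2 at 5 µM, 43.5 and 36.9 at 7.5 µM, and 52.3 and 56.5 CPM at 10 µM. The libraries at 10 µM were above all others, and those from 5 µM were above those at 0 and 2.5 µM. The slope was 1.21 ± 0.24 (adjusted p = 0.0008029), but the study selected *Etv4* for its relation with dose in these libraries, so this is not independent evidence of its direction. Its close relative *Etv5* ranged from 239 to 288 CPM, with both untreated libraries lowest, and its slope of 0.20 ± 0.12 was not called (adjusted p = 0.2942, 95% interval -0.038 to 0.44).

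*Spry2*, an inhibitor of receptor tyrosine kinase signalling, was at 230.5 and 205 CPM at 0 µM, 270.2 and 293 at 2.5 µM, 306 and 287 at 5 µM, 407 and 354 at 7.5 µM, and 252 and 377 CPM at 10 µM. Every treated library was above both untreated ones, and the replicates at 10 µM lay far apart. The slope was 0.68 ± 0.15 (adjusted p = 0.001798), and 0.43 (adjusted p = 0.383) over the treated libraries without the 0 µM ones. With counts thinned to the smallest library it was 0.47 (adjusted p = 0.124). *Spry4*, its relative on the minus strand at chr18:38586247-38601415, was at 34.2 and 25.5 CPM at 0 µM, 21.6 and 25.9 at 2.5 µM, 31.3 and 37.4 at 5 µM, 42.1 and 35.7 at 7.5 µM, and 65.3 and 53.5 CPM at 10 µM. Both libraries at 10 µM exceeded the other 8. The slope was 0.90 ± 0.23 (adjusted p = 0.00862), and the call was lost without 10 µM replicate 2 (0.79, adjusted p = 0.0686) and among the 6 libraries with a mitochondrial share of at least 0.8% (0.68, adjusted p = 0.108).

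*Dusp4*, a nuclear phosphatase that acts on ERK, had 26.1 and 33.0 CPM at 0 µM, 54.6 and 49.6 at 2.5 µM, 42.8 and 49.9 at 5 µM, 54.4 and 53.0 at 7.5 µM, and 35.9 and 57.2 CPM at 10 µM. It was higher in all 8 treated libraries than in both untreated ones, with overlapping values among the treated doses. The slope of 0.71 ± 0.23 (adjusted p = 0.03542) was no longer called in DESeq2 (0.66, adjusted p = 0.140), without 0 µM replicate 1 (0.37, adjusted p = 0.458), without 0 µM replicate 2 (0.67, adjusted p = 0.107), over the treated libraries alone (0.089, adjusted p = 0.957), or with counts thinned to the smallest library (0.53, adjusted p = 0.477). Leaving out either library at 7.5 µM or 10 µM replicate 2 also ended the call (0.69, 0.70 and 0.76, adjusted p = 0.0695, 0.0657 and 0.0683). *Dusp6*, the cytoplasmic ERK phosphatase, stayed between 45.7 and 64.6 CPM with a slope of 0.29 ± 0.18 (adjusted p = 0.3314). The immediate early gene *Egr1* (chr18:34859823-34864984, plus strand) was at 3.05 to 13.8 CPM, 1 to 19 counts a library, and its slope of 0.80 ± 0.49 was not called (adjusted p = 0.3272).

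**Figure D1:**
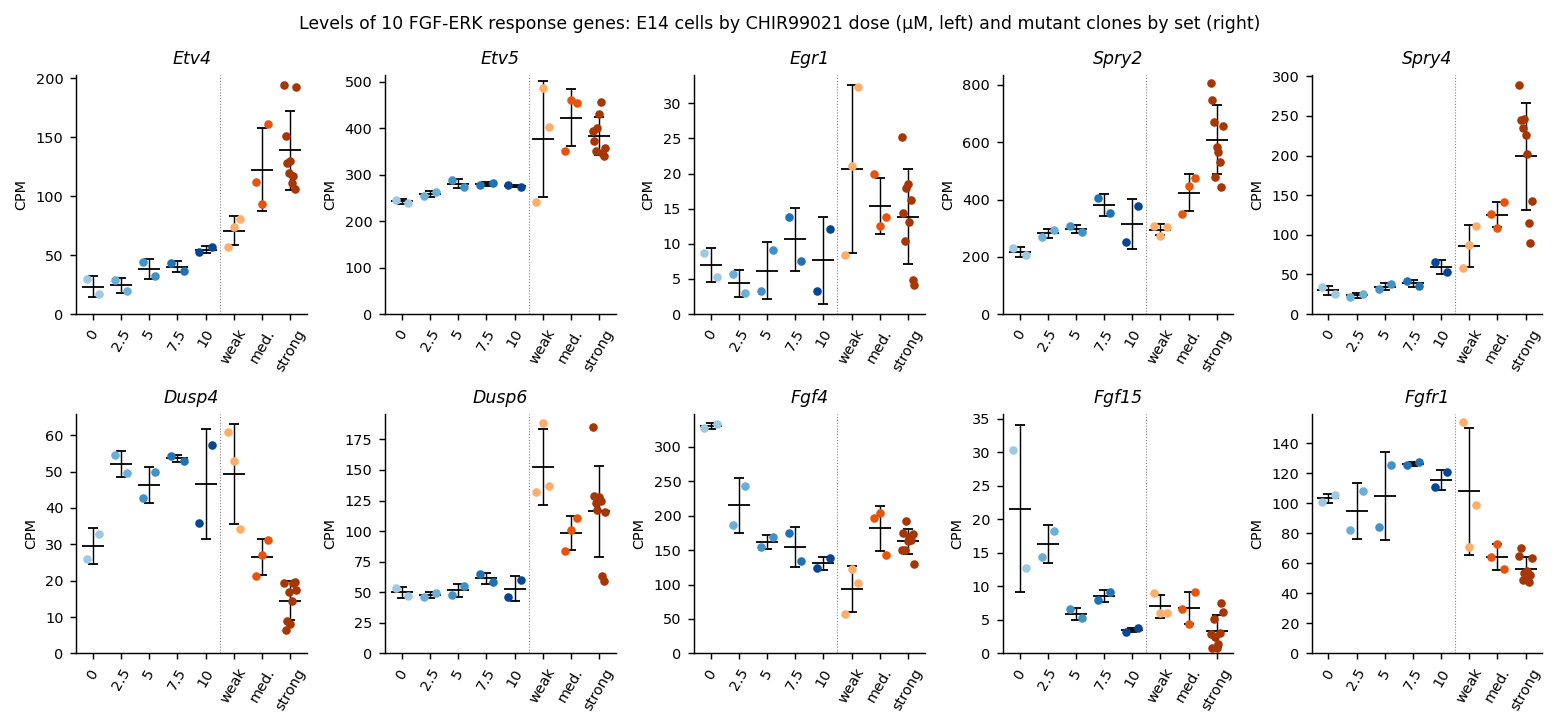
CPM (vertical axis, linear, each gene on its own scale) of the 10 genes in the 25 libraries, with E14 cells by CHIR99021 dose in µM in blue and clones by set in orange to brown. Each point is 1 library and the black bars are the mean ± SD. *Etv4* rises from 17.0 to 29.4 CPM at 0 µM to 52.3 to 56.5 CPM at 10 µM and reaches 106 to 194 CPM in the strong clones, while *Dusp4* is lowest in the strong clones, at 6.39 to 19.8 CPM.

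Between the strong and the weak clones *Etv4*, both Sprouty genes and *Fgf4* were higher in the strong set, and *Dusp4* and *Fgfr1* were lower. Thus 4 of the 10 genes were called higher and 2 lower, in a test over the 15 clones that called 29.8% of 10452 genes, 13.1% higher and 16.6% lower. Without T41S, 4 of the 9 still tested were called higher and 1 lower, and *Fgf15* fell under the filter on low counts. In that setting 15.6% of all genes were called, 6.72% higher and 8.93% lower. The median log2 difference over the 10 genes was -0.13, beside 0.0071 over all genes tested. Markers of primed cells moved with this comparison (3 of 3 tested lower in the strong clones), 5 of 8 ES cell markers were higher in the strong clones, and the fibroblast marker *Col1a1* was at 34.7 to 126 CPM in the weak clones, highest in T41S, against at most 14.6 CPM in the medium and strong clones and 13.8 to 64.7 CPM in the E14 libraries. Their part in these differences was not tested. Total counts were lower in the weak set, with a median of 662881 against 1345179 in the strong set.

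*Etv4* was at 57.1, 73.9 and 80.7 CPM in T41S, S45C and T41N, and the 9 strong clones ran from 106 over a median of 128 to 194 CPM. All 9 strong clones were above all 3 weak ones. The log2 difference was 1.02 ± 0.22 (SE, adjusted p = 0.001136). *Etv5* was at 242, 487 and 404 CPM in the weak clones and from 340.1 over 373 to 457 CPM in the strong clones, wholly within the range of the weak ones. Its difference of 0.059 ± 0.15 was not called (adjusted p = 0.8029, 95% interval -0.24 to 0.36) and turned to -0.19 without T41S.

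*Spry2* was at 307, 273 and 305 CPM in the weak clones in the same order, and from 444 over 584 to 806 CPM in the strong ones. The sets did not overlap, and the difference was 1.05 ± 0.16 (adjusted p = 3.045e-05). *Spry4* was at 58.2, 87.5 and 111 CPM in the weak and from 89.7 over 226 to 289 CPM in the strong clones, where S37F clone H2 alone fell inside the weak range. Its difference was 1.30 ± 0.30 (adjusted p = 0.001849). With the order of genotypes in the reporter assay as a number in place of the sets, *Etv4* (adjusted p = 0.0801), *Spry4* (0.144) and *Fgf4* (0.0994) were not called, while the direction stayed the same.

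*Dusp4* went the other way from the Sprouty genes. It was at 61.0, 52.8 and 34.3 CPM in the weak, 21.3, 27.0 and 31.2 CPM in the medium and from 6.39 over 16.8 to 19.8 CPM in the strong clones. No 2 of these 3 sets overlapped, and strong minus weak was -1.79 ± 0.26 (adjusted p = 2.001e-05). *Dusp6* was at 132, 189 and 137 CPM in the weak and from 59.3 over 123 to 185 CPM in the strong clones, overlapping, with a difference of -0.37 ± 0.23 that was not called (adjusted p = 0.2391).

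*Fgf4* was at 57.1, 122 and 103 CPM in the weak clones and from 129.9 over 165 to 192 CPM in the strong clones, with no overlap and a difference of 0.88 ± 0.18 (adjusted p = 0.0006992). *Fgf15* was at 9.04, 6.03 and 6.05 CPM in the weak clones and from 0.743 over 2.96 to 7.47 CPM in the strong ones, with 3 counts or fewer in 4 clones. Its difference of -1.14 ± 0.52 was not called (adjusted p = 0.1036). *Fgfr1* was at 154, 70.9 and 98.9 CPM in the weak clones, and all 9 strong clones lay lower, from 47.3 over 53.3 to 70.3 CPM. The difference of -1.002 ± 0.18 (adjusted p = 0.0001556) shrank to -0.55 (adjusted p = 0.0513) without T41S. *Egr1* ran from 8.47 to 32.3 CPM in the weak and from 4.09 to 25.2 CPM in the strong clones and was not called (-0.32 ± 0.44, adjusted p = 0.6276). With the order of the genotypes in the reporter assay fitted as a number in place of the sets, *Etv4*, *Spry4* and *Fgf4* were no longer called (adjusted p = 0.0801, 0.144 and 0.0994).

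The 3 medium clones stood between the other sets in some genes and beside 1 of them in others. In S45P, S45F clone C1 and S45F clone D9, *Etv4* was at 112, 93.5 and 161 CPM, above all weak clones and within the range of the strong ones apart from S45F clone C1. *Spry2* was at 350.1, 446 and 476 CPM, above all weak clones, and 8 of the 9 strong clones were above all 3 medium ones. *Fgf4*, at 197, 204 and 143 CPM, and *Fgfr1*, at 63.9, 72.8 and 56.0 CPM, overlapped the strong clones, and *Dusp6*, at 83.9, 101 and 111 CPM, was below all 3 weak clones. No contrast of the medium set was tested.

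**Figure D2:**
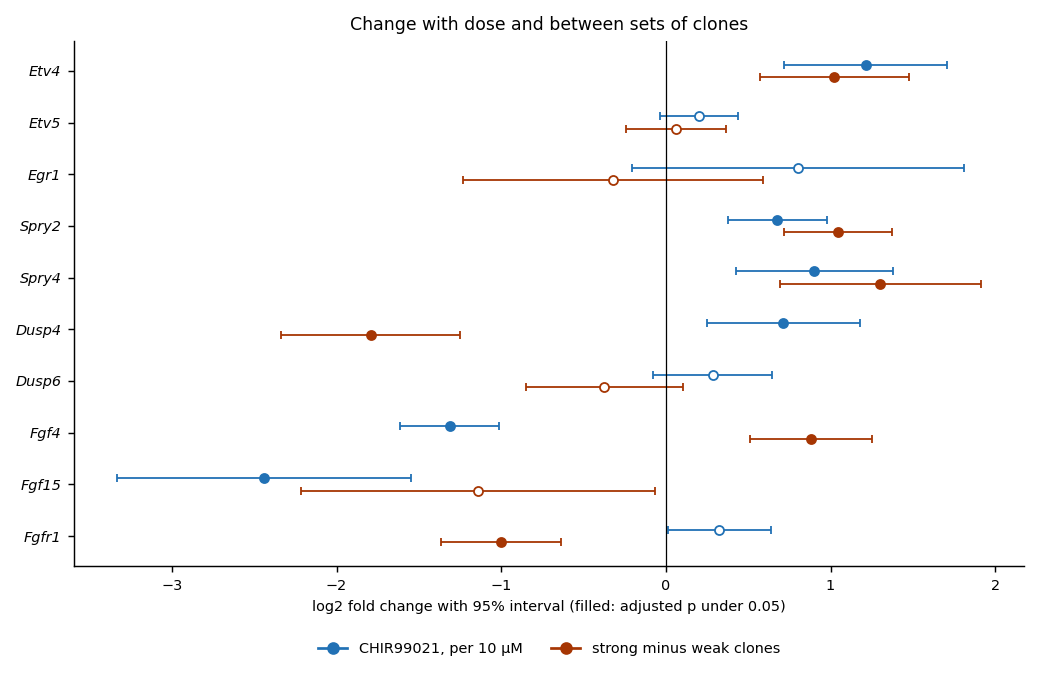
Log2 change (horizontal axis) per 10 µM CHIR99021 in blue and between strong and weak clones in brown for the 10 genes, with 95% intervals from edgeR. Filled points have an adjusted p under 0.05. *Etv4*, *Spry2* and *Spry4* lie to the right of 0 in both, while *Dusp4* is at 0.71 with dose and at -1.79 between clones, and *Fgf4* at -1.31 and 0.88.

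A direct test of the difference between the step from weak to strong clones and the step from 0 µM to 7.5 and 10 µM was added after the values were seen, over all 25 libraries. It called 3 of the 10 genes, 1 higher and 2 lower, and 21.1% of 11375 genes, 9.73% higher and 11.3% lower. *Dusp4* differed by -2.64 ± 0.38 on the log2 scale (adjusted p = 6.557e-06), *Fgf4* by 2.10 ± 0.25 (adjusted p = 3.834e-07) and *Fgfr1* by -1.24 ± 0.27 (adjusted p = 0.0009686). For *Etv4* the difference of the steps was 0.091 ± 0.38 with a 95% interval from -0.69 to 0.87 (adjusted p = 0.9072), for *Spry2* 0.37 ± 0.24 with an interval from -0.11 to 0.85, and for *Spry4* 0.71 ± 0.47 with an interval from -0.25 to 1.67. The intervals are wide, and the missing calls do not show that the steps were alike.

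Clones of the same mutation were not always alike. The S37F clones H2 and G1 had 106 and 192 CPM of *Etv4*, 59.3 and 116 CPM of *Dusp6* and 89.7 and 143 CPM of *Spry4*, ratios of 1.82, 1.95 and 1.60. The T41I clones B9 and A6 were near each other in *Etv4*, at 111 and 117 CPM, and apart in *Spry4*, at 202 and 116 CPM, and in *Dusp6*, at 125 and 63.6 CPM. The T41A clones C1 and E6 differed by a ratio of 1.09 in *Etv4*, *Spry4* and *Dusp6* alike. Their ratio was 1.22 in *Spry2* and 2.05 in *Dusp4*, the latter on 28 and 11 counts. In the S45F clones C1 and D9, *Etv4* was at 93.5 and 161 CPM while *Dusp6* was at 101 and 111 CPM.

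The strong set held a pair of clones high in *Etv4*, S37Y clone A5 with 194 CPM and S37F clone G1 with 192 CPM, whose Wilson 95% intervals of *Etv4* were 176 to 214 and 167 to 222 CPM. The next strong clone was S37C with 151 CPM (131 to 174 CPM), and the other 6 lay between 106 and 130.1 CPM. S37Y was also highest in *Spry2* (806 CPM), in *Spry4* (289 CPM) and, among the strong clones, in *Dusp6* (185 CPM). T41I clone A6 and S37F clone H2 were the strong clones lowest in *Dusp6*, at 63.6 and 59.3 CPM, and were within the 10 E14 libraries' range of 45.7 to 64.6 CPM.

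**Figure D3:**
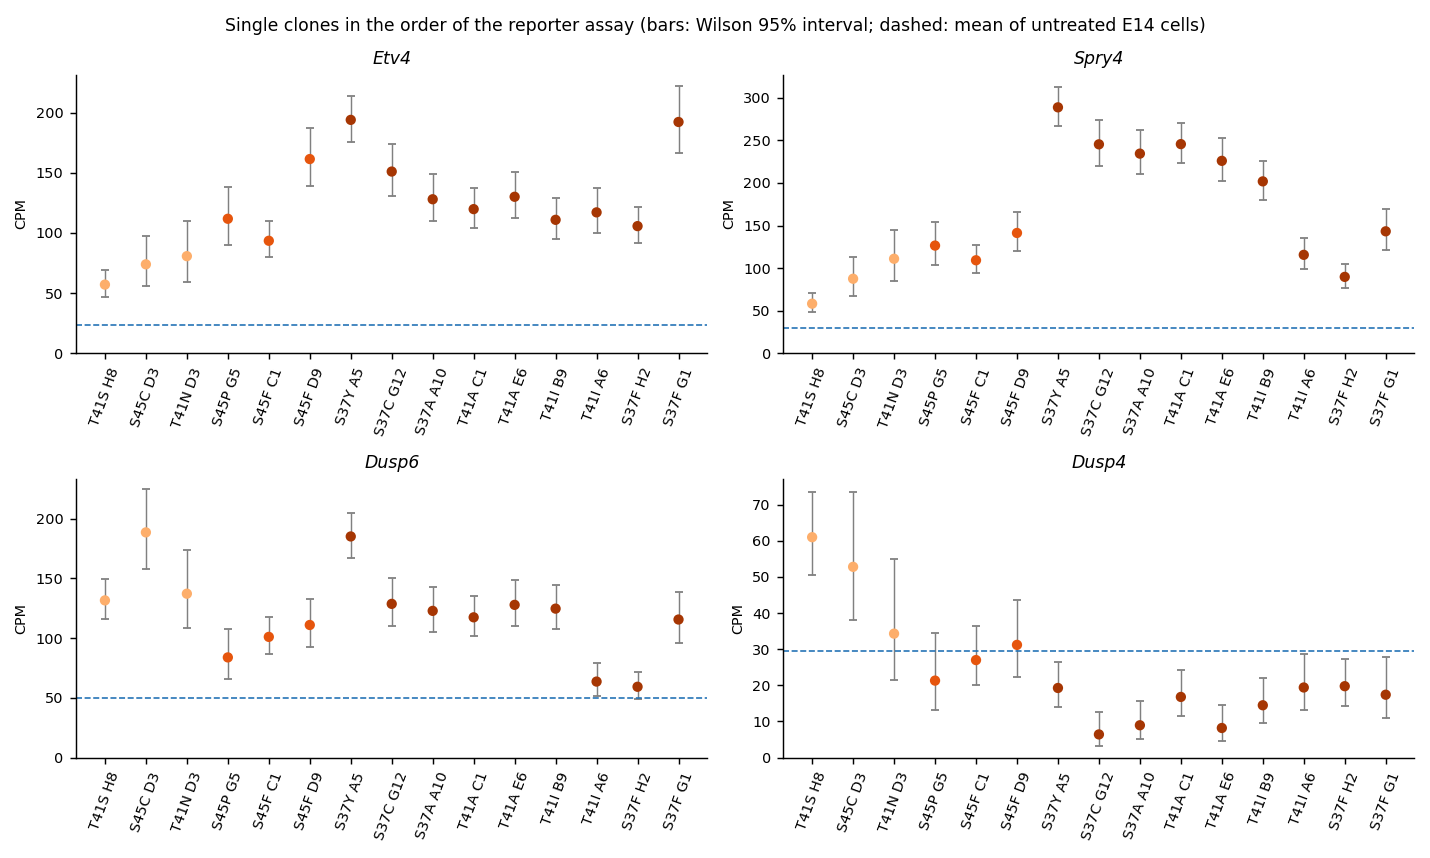
CPM (vertical axis) of *Etv4*, *Spry4*, *Dusp6* and *Dusp4* in the 15 clones, ordered from left to right by the reporter assay's order of genotypes, with Wilson 95% intervals that cover counting error only. The dashed line is the mean of the 2 untreated E14 libraries. *Etv4* and *Spry4* are above the line in all 15 clones, and *Dusp4* is below it in all 9 strong clones.

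Against untreated E14 cells, most of the response genes were higher in the clones, and the ligand genes were lower. Over the strong clones 5 of the 10 genes were called higher and 4 lower, where 34% of 11375 genes tested were called, 16.1% higher and 17.9% lower. Over the weak clones 5 were called higher and 2 lower, where 32.6% were called, 17.1% higher and 15.4% lower. DESeq2 called 4 higher and 1 lower in the weak clones, where it called 10.6% of all genes higher and 11% lower. Several calls in the weak set depended on single libraries, as given below for each gene. In edgeR the medians over the 10 genes were 0.80 (strong) and 0.69 (weak) on the log2 scale, beside 0.0092 and 0.058 over all genes tested. Both comparisons share the same 2 untreated libraries, so their values stand side by side and are not independent of each other.

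*Etv4* was above both untreated libraries in all 15 clones, by 2.50 ± 0.28 (SE) in the strong set (adjusted p = 9.363e-08) and by 1.45 ± 0.32 in the weak set (adjusted p = 0.0008887). *Etv5*, which had not been called with dose or between the sets, was higher by 0.66 ± 0.16 in the strong (adjusted p = 0.001767) and 0.57 ± 0.18 in the weak set (adjusted p = 0.01541), in 14 of 15 clones. T41S clone H8, at 242 CPM, lay between the untreated values of 239 and 246 CPM. In the weak set the *Etv5* call was lost without S45C (0.35, adjusted p = 0.142) and without either untreated library (0.58 and 0.56, adjusted p = 0.0978 and 0.0821).

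*Dusp6* was at 53.3 and 46.8 CPM in untreated cells and above both in all 15 clones. It differed by 1.21 ± 0.27 in the strong set (adjusted p = 0.00105) and by 1.55 ± 0.31 in the weak set (adjusted p = 0.0003221). *Spry4* was also above both in all 15 clones, by 2.70 ± 0.34 in the strong (adjusted p = 8.005e-07) and 1.36 ± 0.40 in the weak set (adjusted p = 0.008757, and 0.0675 without 0 µM replicate 2). *Spry2* was higher by 1.48 ± 0.18 in the strong set (adjusted p = 4.284e-07), and its difference of 0.41 ± 0.20 in the weak set was not called (adjusted p = 0.1168), although all 3 weak clones were above both untreated libraries.

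*Dusp4* was lower in the strong clones by 0.96 on the log2 scale (-0.96 ± 0.28, adjusted p = 0.008807) and higher in the weak clones (0.81 ± 0.31, adjusted p = 0.04409). Both calls were lost without either untreated library. Without 0 µM replicate 1 the values were -1.16 and 0.61 (adjusted p = 0.0525 and 0.334), and without replicate 2 they were -0.80 and 0.97 (adjusted p = 0.115 and 0.0727). The weak set's call held in 18 of 30 alternatives. It was also lost without T41S (0.57, adjusted p = 0.257), without S45C (0.82, adjusted p = 0.0614), in DESeq2 (0.76, adjusted p = 0.110), with the clones and untreated libraries alone (0.80, adjusted p = 0.0817) and without any 1 of the 6 libraries at 2.5, 5 and 7.5 µM (0.81 in each, adjusted p = 0.0529 to 0.0561).

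*Fgf4* was below both untreated libraries in all 15 clones, by -1.01 ± 0.15 in the strong (adjusted p = 1.053e-05) and -1.93 ± 0.21 in the weak set (adjusted p = 1.044e-07). *Fgf15* was likewise below both in all 15, by -2.71 ± 0.40 (adjusted p = 6.506e-06) and -1.58 ± 0.50 (adjusted p = 0.01463). Without 0 µM replicate 1 the *Fgf15* values became -1.89 in the strong and -0.78 in the weak set (adjusted p = 0.475 in the latter), and DESeq2 also ended the call in the weak set (-1.62, adjusted p = 0.0588). *Fgfr1* was lower in the strong clones (-0.86 ± 0.18, adjusted p = 0.0005681) and not called in the weak ones (0.12 ± 0.22, adjusted p = 0.7203), where its sign turned without T41S (-0.34). *Egr1* was called in neither set (0.94 ± 0.52 and 1.21 ± 0.61, adjusted p = 0.164 and 0.1305), and it was called in the weak set without T41S (1.77, adjusted p = 0.0357).

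Set directly against the 4 libraries at 7.5 and 10 µM, the strong clones had more *Etv4*, *Etv5*, *Spry2*, *Spry4* and *Dusp6* RNA and less *Dusp4* and *Fgfr1* RNA, so that 5 genes were called higher and 2 lower where 47% of genes tested were called, 23.4% higher and 23.7% lower. *Etv4* was at 36.9 to 56.5 CPM in these 4 libraries and at 106 to 194 CPM in the strong clones, a log2 difference of 1.54 ± 0.19 (adjusted p = 1.757e-07). *Spry4* differed by 2.07 ± 0.25 (adjusted p = 9.674e-08), *Dusp6* by 0.97 ± 0.21 (adjusted p = 0.0003491), *Spry2* by 0.77 ± 0.13 (adjusted p = 1.689e-05) and *Etv5* by 0.45 ± 0.12 (adjusted p = 0.002894). *Axin2*, in contrast, was at 38.9 to 87.4 CPM in the strong clones and at 98.0 to 134 CPM in the 4 inhibitor libraries, without overlap in the other direction.

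*Dusp4* and the receptor gene *Fgfr1* lay lower in the strong clones than in cells at the top doses. *Dusp4* was at 35.9 to 57.2 CPM at the top doses, above all 9 strong clones (-1.83 ± 0.21, adjusted p = 4.26e-08), and *Fgfr1* at 111 to 127 CPM, also above all 9 (-1.13 ± 0.15, adjusted p = 3.844e-07). *Fgf4* overlapped, at 124 to 175 CPM against 129.9 to 192 CPM, with a difference of 0.17 ± 0.14 and a 95% interval from -0.11 to 0.45 (adjusted p = 0.3045). *Fgf15* and *Egr1* were not called (-0.73 ± 0.49 and 0.46 ± 0.39, adjusted p = 0.2206 and 0.3459).

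**Figure D4:**
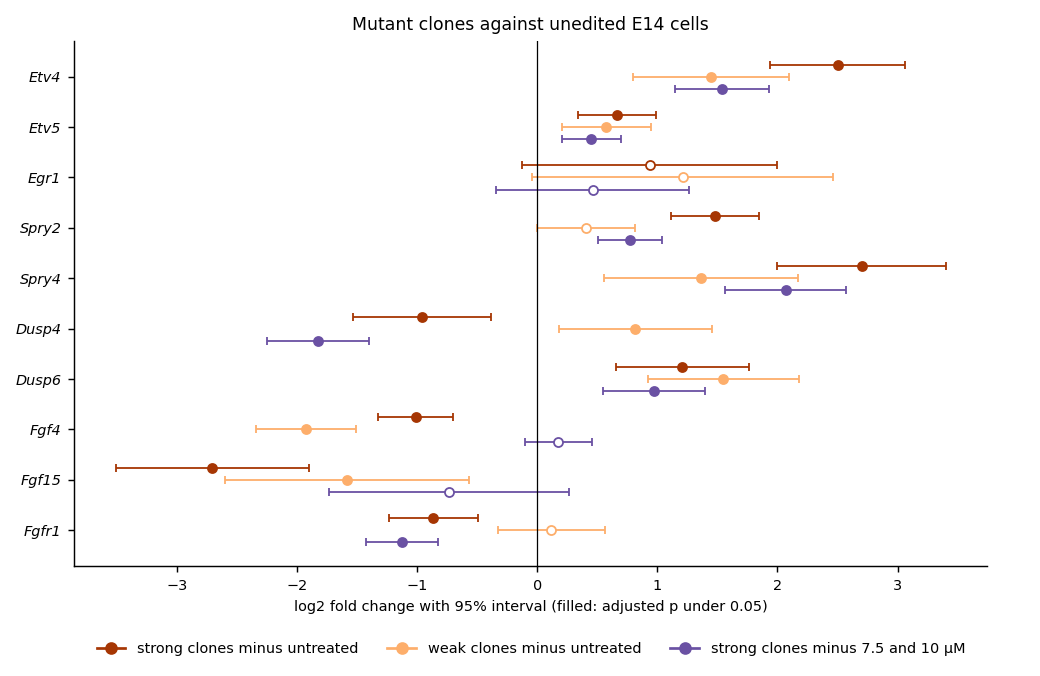
Log2 differences (horizontal axis) with 95% intervals of the strong and the weak clones from the 2 untreated E14 libraries, and of the strong clones from the 4 libraries at 7.5 and 10 µM CHIR99021. Filled points have an adjusted p under 0.05. *Etv4*, *Etv5*, *Spry4* and *Dusp6* lie to the right of 0 with filled points in all 3 comparisons. *Spry2*, not called in the weak clones, and *Egr1*, called in none, also lie to the right in all 3. *Dusp4* is on opposite sides of 0 in the weak clones (0.81) and in the strong clones (-0.96).

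Beyond these 10, a list of 66 other genes of the pathway was read, of which 65 were in the table. This list too was chosen with earlier results of these data known, so its counts beside the shares over all genes are descriptions. Between strong and weak clones none of the 50 tested was called higher and 28 were called lower, where 16.6% of all genes tested were called lower, with a median of -0.60 beside 0.0071 over all genes tested. The 28 were all 3 other ligands, both other receptors, 9 of 21 signal transducers, 6 of 12 other feedback inhibitors and 8 of 12 other ERK response genes tested. At an unadjusted p under 0.05, 2 genes were higher in edgeR, and DESeq2 also called 0 higher and 28 lower. Without T41S, 13 of 51 genes tested were called lower and 0 higher, with a median of -0.47. In that setting 15.6% of all genes were called, 6.72% higher and 8.93% lower. The ones with the largest change were *Fosl2* and *Jun*, subunits of the AP-1 transcription factor, and the feedback inhibitor genes *Dusp14*, *Errfi1* and *Dusp5*. *Jun* was at 36.2 to 87.6 CPM in the weak and 3.88 to 18.4 CPM in the strong clones (-2.38 ± 0.33, adjusted p = 1.271e-05), and *Fosl2* at 15.1 to 51.4 and 2.67 to 10.4 CPM (-2.43 ± 0.37, adjusted p = 3.521e-05). *Errfi1*, an inhibitor of the EGF receptor, was at 55.8 to 105 CPM in the weak and 20.4 to 31.7 CPM in the strong clones (-1.64 ± 0.20, adjusted p = 2.246e-06). The set means of *Dusp14* were 57.7 and 18.2 CPM (-1.71 ± 0.28) and those of *Dusp5* 26.1 and 9.04 CPM (-1.58 ± 0.43), both called. *Etv4*, *Spry2* and *Spry4* were thus higher in the set in which these genes were lower.

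With the CHIR99021 dose, 9 of 48 other genes tested were called higher and 3 lower, where 5.89% of all genes tested were called higher and 6.63% lower, so that the lower calls are near the share over all genes. The median was 0.0021 per 10 µM beside 0.0084 over all genes. Without 0 µM replicate 1, 5 of 49 were higher and 0 lower, where 2.47% and 2.7% of all genes were called. *Phlda1*, an ERK response gene, had the steepest slope of those with a mean of at least 10 CPM, from 21.3 and 21.7 CPM at 0 µM to 75.3 and 108 CPM at 10 µM (1.74 ± 0.23, adjusted p = 3.015e-06). *Fgfrl1*, an FGF receptor without a kinase domain, rose from 6.38 and 11.4 to 28.6 and 32.7 CPM (1.67 ± 0.34, adjusted p = 0.001062). *Ptpn11*, the phosphatase that relays receptor signals to RAS, rose by 1.56 ± 0.31, *Fosl2* by 1.45 ± 0.31 and *Dusp14* by 1.39 ± 0.33.

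Against untreated cells, 23 of 55 other genes were higher and 5 lower in the weak clones, where 17.1% of all genes tested were called higher and 15.4% lower. In the strong clones 8 were higher and 9 lower, shares near those over all genes (16.1% higher and 17.9% lower). The medians were 0.50 and -0.17, beside 0.058 and 0.0092 over all genes. The 23 higher calls in the weak clones became 12 of 53 without T41S, where 12.3% of all genes were called higher, and 8 of 56 without 0 µM replicate 1, where 8.08% were. *Myc*, a growth regulator induced by ERK and by β-catenin, was at 13.0 and 13.8 CPM in untreated cells, at 101 to 115 CPM in the weak and 37.4 to 121 CPM in the strong clones (2.94 ± 0.36 and 2.66 ± 0.33, adjusted p = 5.466e-07 and 4.555e-07). It was at 9.80 to 13.1 CPM at the top doses of inhibitor (strong minus top 2.98 ± 0.27, adjusted p = 7.634e-10). *Phlda1* was at 89.0 to 260 CPM in the weak clones (2.99 ± 0.58, adjusted p = 0.0002235) and overlapped the untreated libraries in the strong ones, at 13.9 to 114 CPM (1.52 ± 0.53, adjusted p = 0.02761). *Dusp14* was higher by 2.58 ± 0.43 and the ETS factor gene *Elk3* by 1.91 ± 0.45 in the weak clones, and the adaptor gene *Frs3* was lower in both sets, by -2.07 ± 0.57 in the weak and -1.21 ± 0.39 in the strong. In the strong clones *Ier3* was lower (-1.65 ± 0.25) and *Spred1*, another inhibitor of the RAS pathway, was higher (1.05 ± 0.21).

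Of the 55 other genes, 8 were called higher and 12 lower in the strong clones than at the top doses, while 47% of all genes tested were called, 23.4% higher and 23.7% lower. The 12 lower calls are near that share, and the 8 higher ones are below it. *Fgfrl1* (-2.31 ± 0.26), *Fosl2* (-2.10 ± 0.32), *Ier3* (-1.82 ± 0.20) and *Jun* (-1.79 ± 0.30) were the largest of those lower in the strong clones. In the test of the clone step against the dose step, 1 was higher and 16 were lower, beside 9.73% higher and 11.3% lower over all genes tested, led by *Elk3* (-3.94 ± 0.54), *Fosl2* (-3.85 ± 0.58), *Phlda1* (-3.37 ± 0.67), *Jun* (-3.26 ± 0.53) and *Dusp14* (-2.94 ± 0.51).

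**Figure D5:**
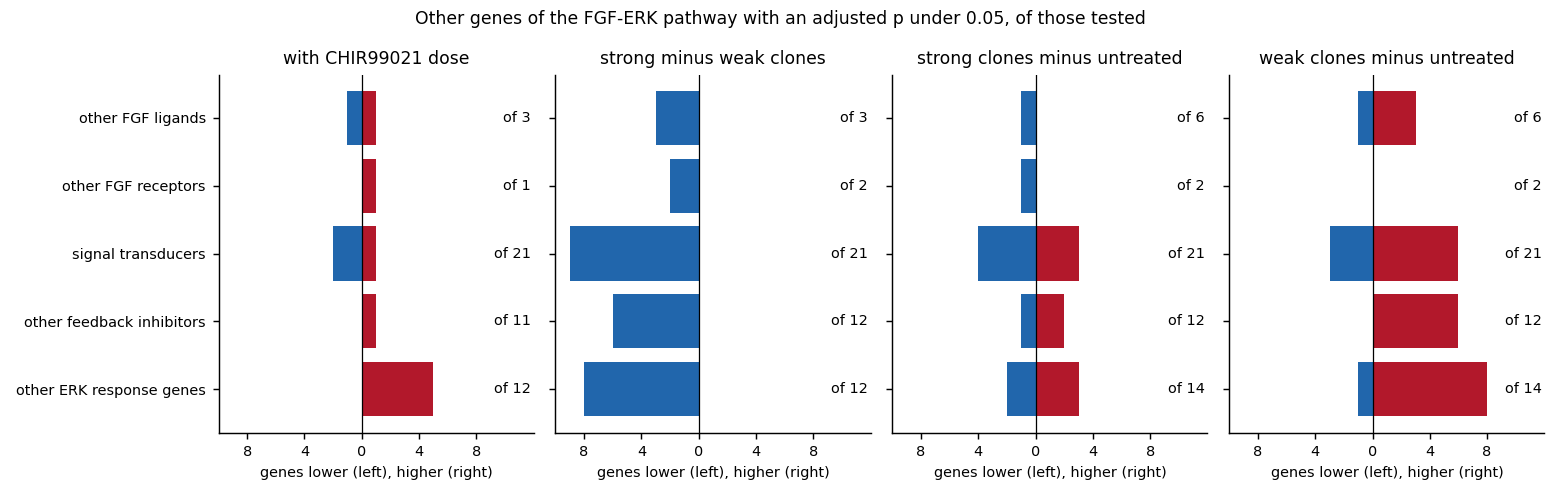
Number of other FGF-ERK genes (horizontal axis) called higher, in red to the right, or lower, in blue to the left, by class and comparison, with the number tested at the right edge of each panel. Between strong and weak clones all 28 called genes were lower, whereas 23 were higher and 5 lower in weak clones against untreated cells.

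Across the 15 clones the genes whose CPM ranked most like *Etv4* were, of 6999 genes averaging 20 CPM or more, *Ncapd2* (Spearman's ρ = 0.911), *Tbcc* (0.871), *Cbs* (0.868), *Mkrn1* (0.864) and *Irf2bpl* (0.854), where the libraries share differences in depth. Of the 10 genes here the nearest were *Spry2*, with ρ = 0.839, and *Spry4*, with 0.807, while *Etv5* had -0.025 and *Dusp4* -0.632. Across the 10 E14 libraries, with dose shared, they were *Tcf7*, *Id3*, *Tmem70* and *Sp5* (0.952 each) and *Zkscan17* (0.939) of 7084 genes, with *Spry4* at 0.818 and *Fgf4* at -0.842. Within the 9 strong clones *Etv4* had ρ = 0.85 with *Spry2*, 0.63 with both *Dusp6* and *Fgfr1*, 0.60 with *Spry4* and -0.57 with *Fgf4*. These are descriptions of rank order over libraries.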

How the data were processed

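RNA of 25 mouse E14 ES cell samples was sequenced with mcSCRB-seq, a bulk 3′ protocol with unique molecular identifiers. The deposited counts per gene were made by the authors from reads trimmed with Cutadapt, filtered for ribosomal RNA with SortMeRNA and aligned to mm10 with RNA STAR. Duplicates were removed with UMI-tools and Picard, reads were counted with featureCounts 2.0.1, and the values were not normalized. The annotation release and strand setting are not given in the sources used here, so reads of overlapping genes on opposite strands cannot be told apart. Reads from 3′ ends do not scale with length, and levels were not compared between genes.

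GENCODE M21 (GRCm38) gave symbols and coordinates, matched on the ID without version (48058 of 48440 IDs). CPM were computed from library totals. Tests used edgeR 4.0.16 (R 4.3.3) with TMM, filterByExpr (minimum count 10), quasi-likelihood F-tests and Benjamini-Hochberg adjustment over all genes tested, at 0.05. The dose was fitted as a number over 10 libraries, the sets of genotypes over 15 clones, and clones against E14 cells over 25 libraries with 8 groups. The labels give each clone's mutation and not its set, and the sets were read from the study's heatmap of these libraries and its reporter scores per mutation. Intervals of changes are 95% intervals of the fit, and those of single libraries are Wilson intervals. Alternatives were DESeq2 1.42.0, RLE scaling, library totals, no filter, a replicate block, subsets of libraries and leaving out each library. On simulated counts with 200 changed genes, 87% were recovered for the dose (10033 genes), 93.5% between strong and weak clones (10452) and 88% for strong clones against untreated cells (11375), with 7.94%, 2.6% and 3.83% false calls. The 7.94% for the dose was above the 0.05 aimed at. All planted changes had 1 size, larger than the dose slopes of the 10 genes except that of *Fgf15*. Every simulated gene had the same spread, so recovery of smaller changes or more variable genes was not measured.

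Differences of replicate 1 minus 2 correlated at -0.232 to 0.188 over 10 pairs of doses, 3 over 0.1. The numbers were therefore not taken to pair libraries. Among 2.5, 5 and 10 µM the correlations were 0.151 to 0.188, and those of 0 µM with each were -0.232 to -0.184. In these doses the smaller library had a mitochondrial share of 0.485% to 0.562%, and its partner 0.986% to 1.46%. The smaller library was numbered 1 at the inhibitor doses named and 2 without inhibitor. Libraries of at least 0.8% alone gave 1051 dose calls. The split was not fitted as a factor, and its cause was not tested. No pair of replicates agreed within sampling noise. All 10 genes are named. Other pathway genes are named where they were among the 5 largest changes of called genes averaging 10 CPM or more in the comparison's libraries. The 10 genes and the lists were chosen with earlier results of these data known.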

Additional observations from a re-analysis of the deposited data

Results flagged for a closer look

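In 3 of the 10 genes the step from weak to strong clones differed from the step with the inhibitor. This was called in a test of the difference itself, which was added after the values were seen. The same test called 21.1% of 11375 genes, so 3 of 10 is near the share over all genes and describes these 3 genes singly. The log2 step from weak to strong clones minus the log2 step from 0 µM to 7.5 and 10 µM was -2.64 (95% interval -3.41 to -1.87) for *Dusp4*, 2.10 (1.60 to 2.61) for *Fgf4* and -1.24 (-1.79 to -0.70) for *Fgfr1*. *Dusp4* was higher in all 4 libraries at the top doses than in both untreated ones, and lower in all 9 strong clones than in all 3 weak ones. *Fgf4* moved the opposite way in these 2 steps, down with the inhibitor and up from weak to strong clones. Against untreated cells, however, it was lower in all 15 clones, by -1.01 in the strong and -1.93 in the weak set. The strong clones overlapped the top doses in *Fgf4* (difference 0.17, not called). *Fgfr1* did not overlap in either step, with 111 to 127 CPM at the top doses against 101 and 105 CPM without inhibitor, and 47.3 to 70.3 CPM in the strong against 70.9 to 154 CPM in the weak clones. Its slope over the 5 doses was not called in edgeR (0.32, adjusted p = 0.1792). Replicate 1 at 2.5 and at 5 µM, with 81.9 and 83.9 CPM, lay below both untreated libraries. Without T41S the *Fgfr1* difference between strong and weak clones was not called either (-0.55, adjusted p = 0.0513). The 3 calls of the difference of steps held in each of its alternatives, leaving out each library included. The values were from -2.80 to -2.39 for *Dusp4*, 1.76 to 2.36 for *Fgf4* and -1.48 to -0.79 for *Fgfr1*.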

How the results depend on the processing

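Counts of called genes moved by over 1.5 times in few settings. The dose count of 1256 was 121 without both 0 µM libraries and 300 with counts thinned to the smallest library, a setting added after the data were seen, in which 5792 genes were tested. The count of 3110 between strong and weak clones was 1871 with the reporter order as a number and 1653 without T41S, and the 5349 of strong clones against the top doses were 3376 with 10 µM alone. DESeq2 gave 905 calls for dose, 3080 between strong and weak clones, 3090 and 2845 for strong and weak clones against untreated cells, 4744 against the top doses and 1880 for the difference of steps. Leaving out each library gave 527 to 1325 calls for dose (lowest without 0 µM replicate 1, and 779 without replicate 2), 1653 to 3264 between strong and weak clones (lowest without T41S), 1626 to 4109 for strong (lowest without 0 µM replicate 1, and 2266 without replicate 2) and 1998 to 3795 for weak clones against untreated cells (lowest without 0 µM replicate 1), 3177 to 5531 against the top doses (lowest without 10 µM replicate 2) and 1344 to 2522 for the difference of steps (lowest without T41S, and 1385 without 0 µM replicate 1). The causes were not tested.

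Fitting the replicate number as a block gave 1140 dose calls, and of the 10 genes *Dusp4* alone lost its call (0.68, adjusted p = 0.0577). Directions turned in uncalled changes only. Between strong and weak clones these were *Etv5* without T41S (-0.19, range over libraries left out -0.19 to 0.30) and *Egr1* without T41N (0.13, range -0.86 to 0.13). In weak clones against untreated cells it was *Fgfr1* without T41S (-0.34, range -0.34 to 0.35). In the difference of steps they were *Etv4* with 10 µM alone (-0.15) or with a library left out (-0.41 to 0.36), *Etv5* (-0.39 to 0.10) and *Egr1* (-1.31 to 0.040). Of the changes of single genes, 339 kept direction and call under the settings other than leaving out each library in turn, 15 lost the call and 2 turned. With each library left out in turn, 1209 kept both, 25 lost the call, 1 gained it and 7 turned. The 40 levels of the genes under TMM scaling moved by less than the SD over the libraries of their set. In the sets of clones this SD spans different mutations and is not a spread of replicates. *Egr1* and *Fgf15* rest on few counts, and the smallest library (10 µM replicate 1) resolves no less than 9.80 CPM.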

Other observations

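Spearman's ρ between pairs of the 10 genes over the 15 clones, which share their sets, was 0.843 for *Spry2* and *Spry4*, -0.843 for *Spry2* and *Dusp4*, -0.811 for *Spry4* and *Dusp4*, and 0.746 for *Dusp4* and *Fgf15*. Within the 9 strong clones *Dusp6* had ρ = 0.783 with both *Spry2* and *Spry4*, against 0.025 and 0.143 over all 15 clones. These values describe rank order and were not tested.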
